A study of Mus musculus with 8 samples.

Results

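AP-1 is a family of transcription factors that bind DNA as pairs through a basic leucine zipper, and 9 of its genes are described here on 8 Affymetrix MOE430A_2.0 arrays of mouse splenic T cells. The genes were chosen by name: the Fos proteins Fos, Fosb, Fosl1 and Fosl2, the Jun proteins Jun, Junb and Jund, and the relatives Atf3 and Batf. They were measured by 11 probe sets of 22626, and the array annotation names 12393 genes in all. Each gene had 1 probe set, except Jun and Fosl1, which had 2 each. All 11 exceeded a floor signal of 141.88 on at least 2 arrays, and so all 9 genes were among the 8457 tested.

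The cells came from C57Bl/6 mice labelled as Gfi1 knockout (KO) or as wild type (WT), and were enriched from spleen with a magnetic pan-T cell kit. Each genotype has 1 array before stimulation and 1 array each after 4, 8 and 24 h in culture with antibodies against CD3, a part of the T cell receptor, and against the costimulatory receptor CD28, at 2 µg/ml. The titles carry a single source number per genotype, and the sources used here give neither the design of the Gfi1 allele nor the age of the mice. No array holds cells kept in culture without antibodies, so the effects of stimulation and of culture cannot be told apart.

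Jund is a Jun protein of resting cells. Signals from the T cell receptor and CD28 pass through Ras and MAP kinases to induce transcription of Fos and Jun genes and to phosphorylate Jun proteins, a step that RNA levels do not show. Fos proteins pair only with partners such as Jun, Jun proteins can pair with each other, and AP-1 binds beside NFAT at the promoters of Il2 and other cytokine genes. Batf lacks a transactivation domain, pairs with Jun proteins and binds with Irf4, and Atf3 is induced by stress and by many immediate stimuli.

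The arrays had been scaled to 1 trimmed mean, and their median signals, which that scaling does not fix, were 258 to 302 in KO-labelled and 222 to 298 in WT-labelled arrays. Of all probe sets, 56.5% to 61.5% per array exceeded the floor. The ratio of 3′ to 5′ control signal, a measure of RNA integrity, was highest on the WT-labelled 8 h array. There it was 0.939 for Gapdh and 1.28 for actin, against 0.725 to 0.813 and 1.111 to 1.175 on the other arrays. Gfi1 itself gave signals of 2316, 5979, 6459 and 9885 at 0, 4, 8 and 24 h in the KO-labelled arrays, against 882, 6359, 5259 and 3966 in the WT-labelled ones. No source used here places this probe set inside or outside the deleted part, so it does not check the labels. All 12 T cell markers on the array, among them Cd3d, Cd3e and Cd28, stood above the floor on all 8 arrays. Their summed signal was 25324 to 61948 in the KO-labelled arrays and 66664 to 92529 in the WT-labelled ones. Granulocyte and precursor markers (13 on the array, granulocyte markers below) summed to 5799 to 168720 in KO-labelled and 924 to 16596 in WT-labelled arrays. Monocyte markers (15) summed to 19708 to 76821 and 1803 to 12415. The plot of marker sums gives each array.

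**Figure D1:**
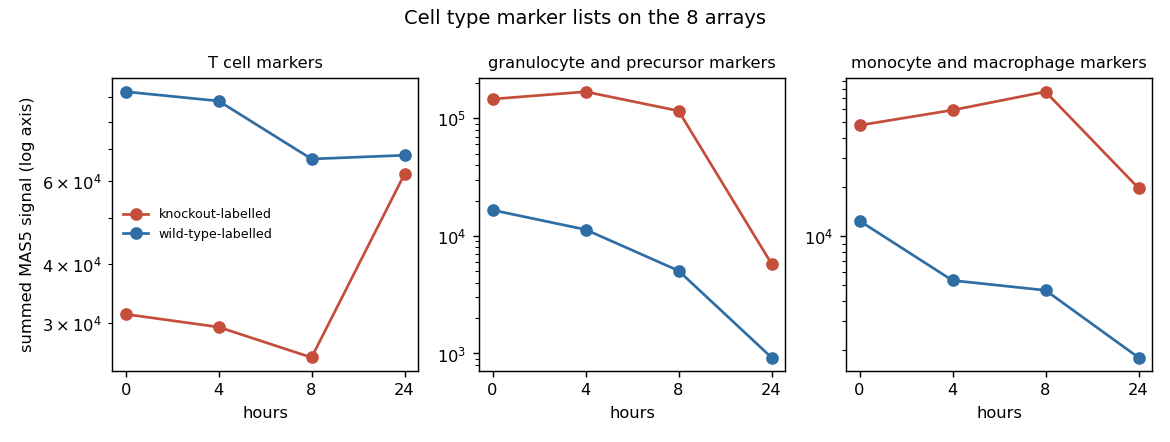
Summed MAS5 signal (log axis) of the T cell, granulocyte and monocyte marker lists against hours of stimulation, 1 point per array. KO-labelled arrays lie below WT-labelled ones for T cell markers and above them for both myeloid lists at all 4 times, and the T cell sums come closest at 24 h (61948 and 67880).

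Fos and Jun are the pair of AP-1 genes whose signals ran most alike over the 8 arrays (Pearson r of log2 signal 0.94, a description over arrays that share 2 sources). Sequence just before their starts is therefore shown, from RefSeq on GRCm38.p6, read 5′ to 3′ on the gene's strand and ending at the base before the start. Capitals mark the motif found: TATAAA in Fos, 33 to 28 bases before the start, and TGACATCA in Jun, 45 to 38 bases before it, a site known as one that Jun and Atf2 bind.
Fos, chr12:85473837-85473889, plus strand: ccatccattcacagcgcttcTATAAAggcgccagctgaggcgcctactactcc
Jun, chr4:95052223-95052287, minus strand: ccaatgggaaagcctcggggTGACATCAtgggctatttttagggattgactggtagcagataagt

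Promoter windows of 300 bases (250 before to 50 after a start) were matched for 8 of the 9 genes, all but Fosl1, and searched on both strands. TGACATCA occurred in 1 of the 8, that of Jun, and in 3.62% of all 32851 windows. TATAAA occurred in 2 of the 8, Fos and Junb, and in 13.6% of all windows. In Junb the match covers bases 1 to 6 from the start, not the stretch before it. The cyclic AMP response element TGACGTCA was in 0 of the 8 and 1.79% of all, the classical AP-1 site (TGAGTCA or TGACTCA) in 0 and 5.2%, and the serum response CArG box in 0 and 1.63%. No match overlapped another. These are letters in a short window and say nothing of binding. Fos (chr12:85473890-85477274) and Batf (chr12:85686720-85709087) are near neighbours on chromosome 12, with 209 kb between them.

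The first comparison asks which AP-1 genes changed with stimulation and culture in both genotypes. Atf3 and Batf rose, Fosl1 was higher at 24 h, Fos fell by 24 h, and Fosb, Fosl2, Jun, Junb and Jund did not pass at any time. At 4 h 1 of the 9 genes was called higher, against 0.816% of all genes, and 0 were called lower, against 0.615%. At 8 h 2 were called higher (1.19% of all genes) and 0 lower (1.24%), and at 24 h 3 were called higher (1.5%) and 1 lower (2.48%). A call needed a limma adjusted p under 0.05 over 15062 probe sets and at least a 2-fold change. At an unadjusted p under 0.05, limma gave 4, 3 and 3 of 9 as higher and 0, 1 and 2 as lower. The share of all genes at an unadjusted p was not counted, so such counts here and below have no background beside them. The median log2 change of the 9 genes was 0.69, 0.16 and -0.03 at 4, 8 and 24 h, beside -0.10, -0.11 and -0.08 for all genes. The plot of changes from 0 h gives each gene with its SE.

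These p-values set the change common to the genotypes against the difference between their responses. Noise of single arrays and cultures is part of that difference and cannot be told apart from an effect of genotype on the response. No array repeats a genotype and time, so the spread between mice or cultures of 1 genotype is not measured separately. None of the AP-1 calls held when any 1 of the 6 arrays of 0, 4 and 8 h was left out, a fit with 2 residual degrees of freedom in which at most 9 of all genes were called for these changes.

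**Figure D2:**
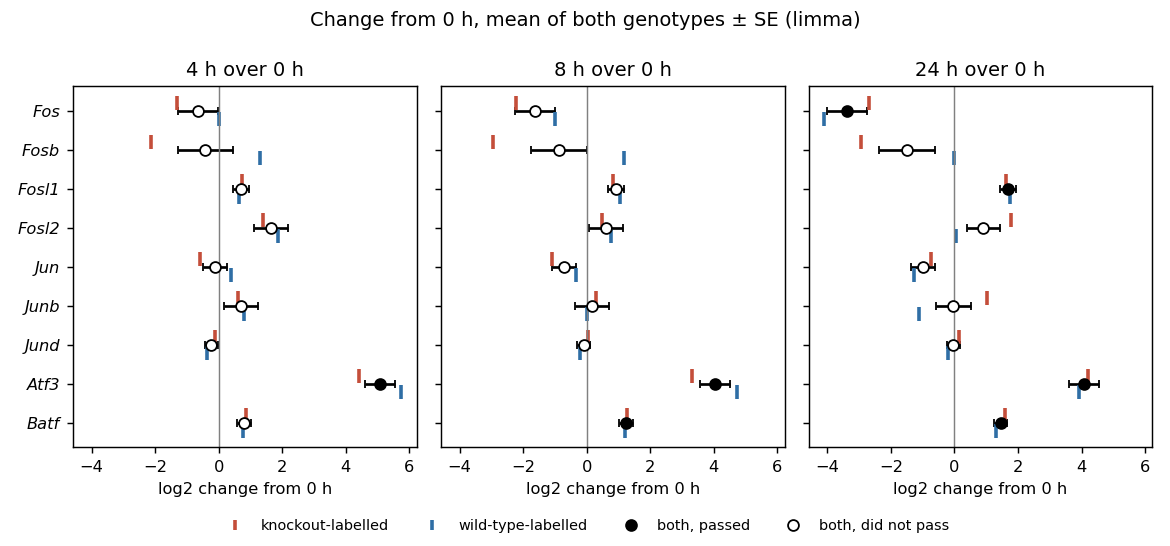
Log2 change from 0 h at 4, 8 and 24 h for the 9 AP-1 genes. Black points are the mean over both genotypes with its limma SE, filled where the change passed (adjusted p under 0.05 and at least 2-fold), and ticks are the change within each genotype. Atf3 lies furthest right at all 3 times (5.07, 4.03 and 4.07), Fos moves left to -3.39, and the ticks of Fosb and Junb fall on both sides of 0.

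Atf3 (probe set 1449363_at, chr1:191170296-191183333), a factor of the stress response that binds cyclic AMP response and AP-1 sites, had the largest mean change of the 9 at 4, 8 and 24 h. Its signal was 148, 3109, 1482 and 2722 at 0, 4, 8 and 24 h in the KO-labelled arrays, against 147, 7809, 3895 and 2227 in the WT-labelled ones. Both 0 h signals lay just above the floor, and the 6 later ones lay at least 10-fold above it. Atf3 rose by 5.07 on the log2 scale at 4 h (SE 0.47, limma adjusted p = 0.0134), with both genotypes higher. Its changes at 8 and 24 h were 4.03 (limma adjusted p = 0.0162) and 4.07 (limma adjusted p = 0.013). With any 1 of the 6 arrays of 0, 4 and 8 h left out, the limma adjusted p at 4 h was 0.119 to 0.327, while the change itself was 4.58 to 5.55. From 4 to 24 h its log2 change was -0.19 in KO-labelled and -1.81 in WT-labelled cells, and the change in common did not pass (limma adjusted p = 0.458).

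Batf (1419410_at), a factor needed for Th17 and follicular helper T cell differentiation, was higher at 8 and 24 h than at 0 h by nearly the same amount in both genotypes. Its signals were 1100, 1970, 2659 and 3344 in the KO-labelled arrays at 0, 4, 8 and 24 h, against 1255, 2126, 2901 and 3096 in the WT-labelled ones. Each later array exceeded the earlier ones of its genotype, and the genotypes differed by at most 0.19 on the log2 scale. The log2 change was 0.80 at 4 h (SE 0.22, limma adjusted p = 0.183), which did not pass, 1.24 at 8 h (limma adjusted p = 0.046) and 1.45 at 24 h (limma adjusted p = 0.0234). The 8 h call passed in 5 of 10 alternatives, and its limma adjusted p was 0.0257 to 0.11 over them.

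Fosl1 (1417487_at, chr19:5447698-5455938), which encodes the Fos-related protein Fra-1 and lacks the strong transactivation domain of Fos, was under the floor before stimulation and low after it. It gave 29.7, 236, 252 and 438 in the KO-labelled arrays, against 3.4, 221, 292 and 475 in the WT-labelled ones. Both 0 h signals are below the floor, so the rise by 24 h is at least 3.21-fold (log2 1.68, SE 0.25, limma adjusted p = 0.0234). Setting both 0 h values to the floor removes the spread between them, and the SE can be too small. The second probe set, 1417488_at, did not show this rise. It gave 31.4, 187, 89.8 and 69.6 in the KO-labelled arrays, against 3.1, 118, 23.7 and 189 in the WT-labelled ones. Its change at 24 h was 0.21 (limma adjusted p = 0.657), and with the median over both probe sets the limma adjusted p of Fosl1 was 0.0683.

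Fos (1423100_at), the founding member and an immediate early gene, was high before stimulation and lower at the end. Its signal was 15294, 6147, 3267 and 2392 at 0, 4, 8 and 24 h in the KO-labelled arrays, against 14366, 14241, 7233 and 838 in the WT-labelled ones. KO-labelled Fos was already lower at 4 h than at 0 h, while the WT-labelled signal at 4 h was near its 0 h value. Over both genotypes Fos fell by 3.39 on the log2 scale at 24 h (SE 0.63, limma adjusted p = 0.04, lower in both genotypes). Changes of -0.66 at 4 h (limma adjusted p = 0.701) and -1.61 at 8 h (limma adjusted p = 0.224) did not pass. Under the alternatives to the limma setting, the 24 h adjusted p ran from 0.0223 to 0.245 and passed in 6 of 10. The granulocyte markers were lower at 24 h too, with 8 of 12 tested called lower and a median log2 change of -3.65. Monocyte markers had 5 of 15 called lower and a median of -1.59. Red cell markers had 3 of 4 called lower and -2.96, and B cell markers 4 of 7 and -1.95. Of all genes 2.48% were called lower at 24 h. The part of these cell types in the fall of Fos was not tested.

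**Figure D3:**
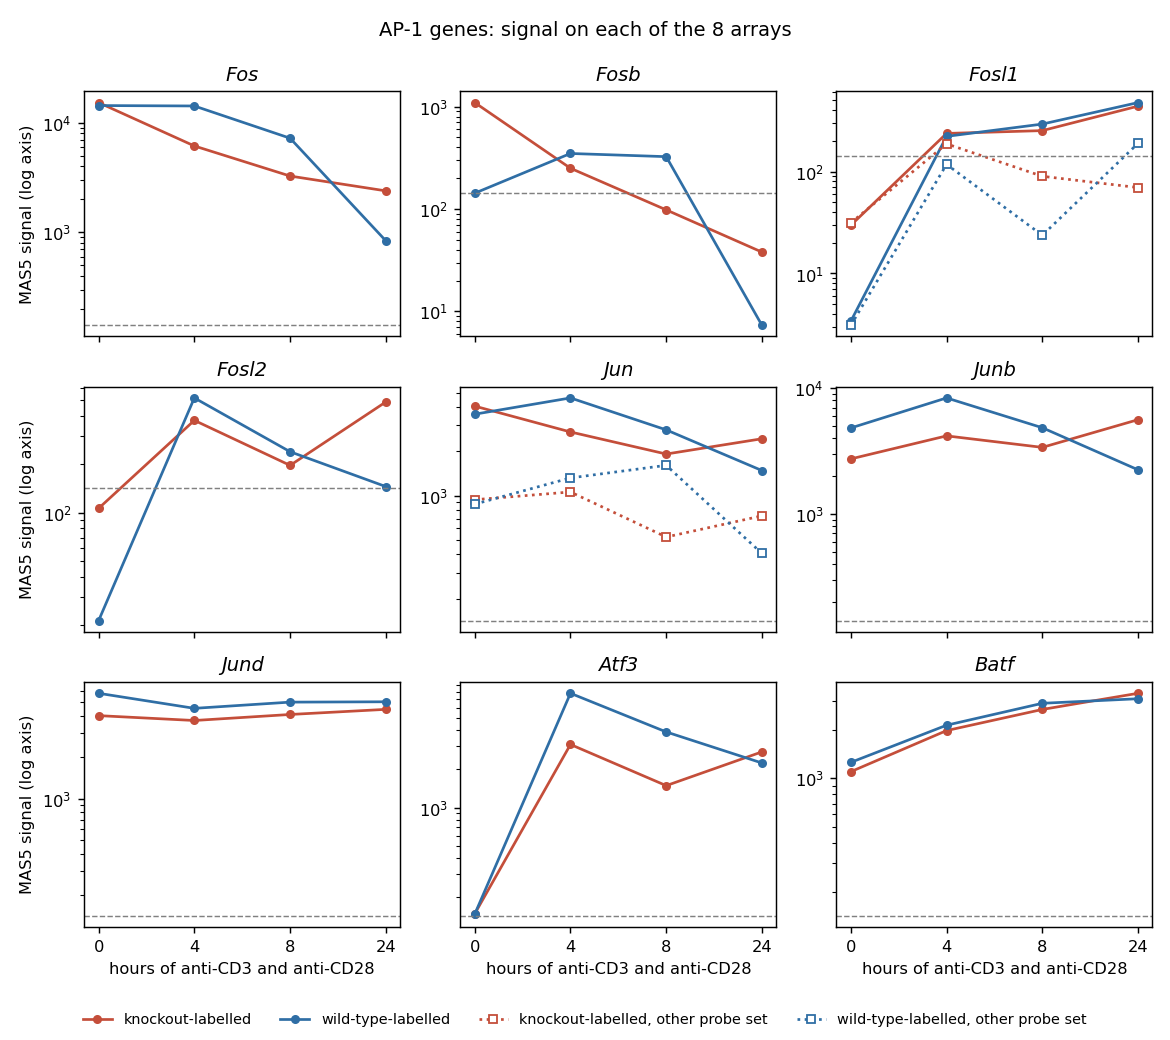
MAS5 signal (log axis) of each AP-1 gene against hours of stimulation, 1 point per array. Solid lines are the brightest probe set of a gene, dotted lines with open squares its other probe set, and the dashed grey line is the floor of 141.88. The genotype lines of Batf and Jund run close together. The solid lines of Fos, Fosb, Fosl2, Jun, Junb, Atf3 and Batf cross between 8 and 24 h, with both Fosb signals under the floor at 24 h.

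Fosl2 (1422931_at, chr5:32136472-32157840), the gene of Fra-2, was below the floor on both 0 h arrays and peaked at different times. KO-labelled signals were 106, 375, 197 and 489 at 0, 4, 8 and 24 h, against 21.3, 518, 240 and 145 in the WT-labelled arrays. The WT-labelled signal was highest at 4 h and back near the floor at 24 h, whereas the KO-labelled one was highest at 24 h. The log2 change at 4 h was 1.64 (SE 0.53, limma adjusted p = 0.249), a lower bound that did not pass. Without the KO-labelled 24 h array the same change gave a limma adjusted p = 0.0398, and without the WT-labelled 24 h array 0.047. With the floor at the 60th percentile the 4 h change was 0.06.

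Fosb (1422134_at, chr7:19302696-19310118), a close relative of Fos that is also an immediate early gene, had opposite courses in the genotypes up to 8 h. It gave 1095, 250, 98 and 37.9 at 0, 4, 8 and 24 h in the KO-labelled arrays, against 143, 349, 325 and 7.3 in the WT-labelled ones. The KO-labelled 0 h array alone exceeded all 7 others, and both 24 h signals were under the floor. The change in common was -0.42, -0.88 and -1.48 at 4, 8 and 24 h with an SE of 0.88, and none passed (limma adjusted p from 0.384 to 0.883).

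Among the Jun genes, Junb (1415899_at, chr8:84976909-84978748), a partner of Fos and Batf and a weaker activator than Jun, followed 2 courses. Its signal was 2742, 4179, 3386 and 5623 at 0, 4, 8 and 24 h in the KO-labelled arrays, against 4829, 8370, 4850 and 2244 in the WT-labelled ones. The WT-labelled signal was highest at 4 h and lowest at 24 h, while the KO-labelled one was highest at 24 h. The change in common at 24 h was -0.03 (SE 0.54, limma adjusted p = 0.992), made of 1.04 in KO-labelled and -1.11 in WT-labelled cells.

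Jun (1417409_at, chr4:95049036-95052222), the strongest activator of the family, gave 4051, 2705, 1916 and 2433 in the KO-labelled arrays, against 3569, 4603, 2795 and 1480 in the WT-labelled ones. Its 24 h change was -1.0 (SE 0.38, limma adjusted p = 0.191), lower in both genotypes. The second probe set, 1448694_at, gave 939, 1060, 524 and 730 in the KO-labelled arrays, against 876, 1319, 1606 and 405 in the WT-labelled ones. The probe sets disagreed in WT-labelled cells at 8 h, where the first was 0.35 below its 0 h value and the second 0.88 above it on the log2 scale. That array had the highest 3′ to 5′ control ratios, given above, and their part in the disagreement was not tested.

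Jund (1449117_at, chr8:70697739-70700616), known to restrain proliferation, had the smallest changes of the 9 at 8 and 24 h, with Junb equal to it at 24 h. Its signal was 4000, 3688, 4077 and 4440 in the KO-labelled arrays, against 5804, 4516, 5008 and 5037 in the WT-labelled ones. Every KO-labelled signal lay below every WT-labelled one. The changes in common were -0.24, -0.09 and -0.03 with an SE of 0.21, and none passed (limma adjusted p from 0.667 to 0.967).

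Between 4 and 24 h limma called 0 of 9 AP-1 genes higher, against 0.0473% of all genes, and 0 lower, against 0.0946%. At an unadjusted p under 0.05 2 were higher (Fosl1 and Batf) and 2 lower (Fos and Jun), with no share of all genes counted. Fos had the largest change, -2.72 (SE 0.63, limma adjusted p = 0.205), made of -1.36 in KO-labelled and -4.09 in WT-labelled cells.

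The second comparison sets the KO label against the WT label at each time. Several AP-1 genes were lower in the KO-labelled array at 4 and 8 h and higher at 24 h. At 4 h Fos, Junb and Atf3 were at least 2-fold lower (3 of 9, against 6.59% of all genes), and at 8 h Fos, Fosb and Atf3 were (3 of 9, against 6.67%). None was at least 2-fold higher at these times, against 11.8% and 10.7% of all genes. Junb stood at the 2-fold threshold at 4 h, with a log2 difference of -1.0 (4179 against 8370), so that count rests partly on a borderline gene. At 24 h Fos, Fosl2 and Junb were at least 2-fold higher (3 of 9, against 9.19%) and none lower (5.1%). Before stimulation only Fosb was higher (1 of 9, against 8.05%) and none was lower (6.78%). Over the 4 times together 0 of 9 were always 2-fold higher, against 1.86% of all genes, and 0 always 2-fold lower, against 0.166%. With 1 array per genotype and time these are differences between 2 arrays, with no replicate check and no test.

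**Figure D4:**
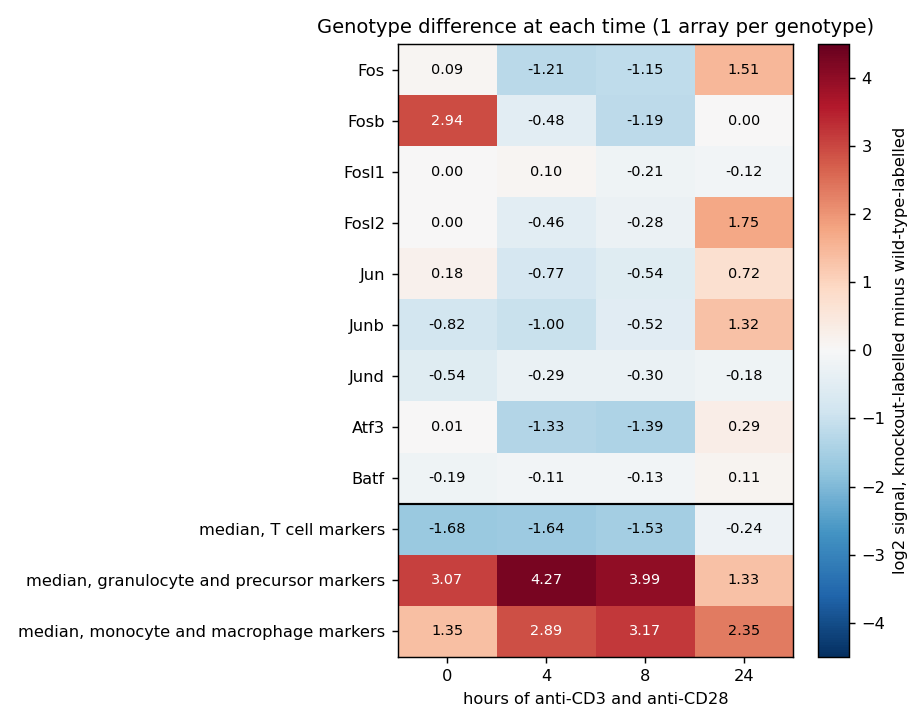
Log2 signal in the KO-labelled minus that in the WT-labelled array at each time, with the values printed, for the 9 AP-1 genes and for the medians of 3 marker lists. Fos, Jun, Junb, Fosl2 and Atf3 are below 0 at 4 and 8 h and above 0 at 24 h, and the T cell marker median stands at -1.64 and -1.53 at 4 and 8 h and at -0.24 at 24 h.

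At any size, 8 of 9 genes were lower in the KO-labelled array at 4 h and 9 of 9 at 8 h, against 49.2% and 54.3% of all genes. At 24 h 6 of 9 were higher, against 48.4% of all genes. The 6 that were lower at 4 and 8 h and higher at 24 h were Fos, Fosl2, Jun, Junb, Atf3 and Batf, an order that 15.2% of all genes showed. Batf belongs to them only by 0.11 at 24 h, which becomes -0.17 with arrays scaled to a common median. The median log2 difference of the 9 genes was -0.48, -0.52 and 0.29 at 4, 8 and 24 h, beside 0.00, -0.08 and 0.00 for all genes.

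Atf3 differed by -1.33 at 4 h and -1.39 at 8 h and by 0.29 at 24 h (0.01 with arrays scaled to a common median). The differences of Fos were -1.21, -1.15 and 1.51 at these times, after 0.09 at 0 h. For Fosl2 the 24 h difference was 1.75, between 489 in the KO-labelled and 145 in the WT-labelled array. With the floor at the 60th percentile that difference was 0.03, and 2 of 9 genes were then at least 2-fold higher at 24 h. Fosb showed the largest difference of the 9 genes, 2.94 at 0 h, where the WT-labelled signal stood just above the floor. Its 8 h difference of -1.19 is a bound, since the KO-labelled signal was under the floor. In Jun the probe sets differed in size at 8 h, with -0.54 in the brighter and -1.62 in the other.

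Cell type markers differed between the same arrays. The median KO minus WT difference of T cell markers was -1.68, -1.64, -1.53 and -0.24 at 0, 4, 8 and 24 h on the log2 scale. At these times 10, 11, 10 and 1 of 12 were at least 2-fold lower, against 6.78%, 6.59%, 6.67% and 5.1% of all genes. Granulocyte markers (12 tested) had medians of 3.07, 4.27, 3.99 and 1.33 and monocyte markers (15 tested) 1.35, 2.89, 3.17 and 2.35. Of the granulocyte markers 9, 9, 9 and 8 were at least 2-fold higher in the KO-labelled array. The shares of all genes were 8.05%, 11.8%, 10.7% and 9.19%. At least 2-fold lower were 0 of the granulocyte markers. Not all were higher: Ngp, Camp and Ltf differed by -0.54, -0.56 and -0.60 at 0 h and by -0.81, -0.82 and -0.21 at 4 h. Among monocyte markers Adgre1 and C1qb were lower at 0 h (-0.65 and -0.39). Nor were all T cell markers lower: Thy1 differed by -0.88 at 0 h but by 0.19, 0.22 and 1.60 at 4, 8 and 24 h. Cd3e and Cd247 differed by 0.12 and 0.20 at 24 h. Fewer T cells in a sample and less RNA per T cell cannot be told apart here. Relative to the T cell marker median, a scale chosen after the values were seen, Fos differed by 0.43 and 0.38 at 4 and 8 h, Atf3 by 0.31 and 0.14, Junb by 0.64 at 4 h and Fosb by 0.34 at 8 h. This scale raises every difference, since the T cell median is negative at all 4 times. On it 5 of 9 genes exceeded the WT-labelled array by 2-fold or more at 4 h, and 5 of 9 at 8 h, against 84.7% and 76.9% of all genes. None of the 9 was at least 2-fold lower at these times, against 0.106% and 0.0709% of all genes. At 0 h 8 of 9 were at least 2-fold higher (86.2% of all genes), at 24 h 3 of 9 (13.6%), and at all 4 times 1 of 9 (9.86%). The part of the myeloid cells in the AP-1 signals was not tested.

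The responses can also be set side by side. From 0 to 4 h Atf3 changed by 4.40 in KO-labelled and 5.74 in WT-labelled cells, and Fos by -1.31 and -0.01. A difference in response of at least 4-fold was seen for Fosb at 4 and 8 h (-3.42 and -4.13, 1 of 9 lower at each time, against 0.284% and 0.709% of all genes), and 0 of 9 were higher by that much, against 0.875% and 1.82%. At 24 h it was seen for Fosb (-2.94, 1 of 9 lower, against 2.58%) and Junb (2.14, 1 of 9 higher, against 3.62%). Opposite signs were seen in 2 of 9 genes at 4, 8 and 24 h each, against 30.2%, 28.1% and 36.4% of all genes. The Fosb values come from the single high 0 h signal of 1095 and from signals at the floor. With 1 array per genotype and time the difference in response was not tested.

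Of 21 other basic leucine zipper factors tested, 1 was called higher and 0 lower at 4 h, with a list median of 1.00 (limma, 10 higher and 0 lower at an unadjusted p under 0.05). Of all genes 0.816% were called higher and 0.615% lower at 4 h. Atf4, the factor of the amino acid response, rose by 1.59 at 4 h (limma adjusted p = 0.0264) and by 1.44 at 24 h (limma adjusted p = 0.0234). The second gene called at 24 h was Batf3, a relative of Batf known from dendritic cells (2.11, limma adjusted p = 0.0271, named after its value was seen). By genotype, 6 of the 21 were at least 2-fold higher in the KO-labelled array at 0 h and 2 lower (8.05% and 6.78% of all genes). At 4 h 7 were higher and 4 lower (11.8% and 6.59%), and the list median was 0.00 at both times. Cebpd and Cebpb, factors of myeloid cells, were higher in the KO-labelled array by 2.98 and 2.47 at 0 h and by 3.75 and 1.98 at 4 h. Bach2 and Ddit3 went the other way, with differences of -1.94 and -1.08 at 0 h and -1.62 and -1.69 at 4 h. Batf2, an interferon-induced relative, gave 41.6, 1493, 1257 and 306 in the KO-labelled arrays, against 17.3, 151, 106 and 99.5 in the WT-labelled ones. The myeloid marker medians given above were above 0 in the same arrays, and their part in these differences was not tested.

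Of 16 tested kinases between the T cell receptor and AP-1, 0 were called higher and 1 lower at each of 4, 8 and 24 h (limma, 2, 2 and 1 higher and 2, 3 and 3 lower at an unadjusted p under 0.05). That gene was Map2k6, an activator of p38 (a bound of -1.30 at 4 h, limma adjusted p = 0.0385, with all 6 later signals under the floor). Of all genes 0.816%, 1.19% and 1.5% were called higher and 0.615%, 1.24% and 2.48% lower at 4, 8 and 24 h. Rasgrp1, which activates Ras in T cells, gave 596, 393, 279 and 312 in the KO-labelled arrays, against 1939, 2413, 666 and 480 in the WT-labelled ones. Prkcq, the protein kinase C of the T cell synapse, had KO minus WT differences of -1.54, -2.32, -1.69 and -0.50 at 0, 4, 8 and 24 h. Both are T cell genes, and the T cell marker medians were -1.68, -1.64, -1.53 and -0.24 in the same arrays. The part of T cell content was not tested. Serum response factor, its partners and MEF2 factors (7 tested) had 0 called at 4 and 8 h, and 1, Mef2d, was called lower at 24 h (-1.42, limma adjusted p = 0.0427). At an unadjusted p under 0.05 limma gave 1 of the 7 as higher at 4 h, 1 as lower at 8 h and 2 as lower at 24 h.

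Among 8 factors that bind DNA next to AP-1, Irf4, the partner of Batf and Jun at composite sites, was the 1 called, at each of the 3 times. Of all genes 0.816%, 1.19% and 1.5% were called higher at 4, 8 and 24 h. Irf4 gave 532, 5161, 5452 and 9198 at 0, 4, 8 and 24 h in the KO-labelled arrays, against 342, 21953, 22014 and 11302 in the WT-labelled ones. It rose by 4.64 at 4 h (SE 0.65, limma adjusted p = 0.0311), and its genotype difference was -2.09 and -2.01 at 4 and 8 h, beside -0.11 and -0.13 for Batf. Ets1, a factor of resting lymphocytes, had KO minus WT differences of -1.12, -1.56, -2.01 and -0.08.

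Of 18 tested genes with known AP-1 sites in activated T cells, 8, 8 and 9 were called higher and 0 lower at 4, 8 and 24 h. The list medians were 2.50, 1.99 and 2.60. Of all genes 0.816%, 1.19% and 1.5% were called higher and 0.615%, 1.24% and 2.48% lower. At an unadjusted p under 0.05 limma gave 14, 12 and 14 of the 18 as higher and 0 as lower. The list's genes are known to be induced, so its direction is no independent evidence. Il2, the T cell growth factor, rose by at least 6.66 at 4 h on the log2 scale, with both 0 h signals under the floor (limma adjusted p = 0.00107). Its genotype difference was 0.31, -0.32 and -0.89 at 4, 8 and 24 h, while Fos stood at -1.21, -1.15 and 1.51. At 4, 8 and 24 h 5, 3 and 11 of the 18 were at least 2-fold higher in the KO-labelled array. The shares of all genes were 11.8%, 10.7% and 9.19%. At least 2-fold lower were 4, 3 and 1 of the 18, against 6.59%, 6.67% and 5.1% of all genes.

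The genes that ran most like each AP-1 gene over the 8 arrays were picked by Pearson r of log2 signal. For Batf they were Gadd45g (0.997), a stress-inducible signalling protein, and Rbpj (0.974), the DNA-binding factor of Notch signalling. Atf3 ran most like the cytokine Lif (0.996) and Med11 (0.989), and Junb like Ier5 (0.96) and Pde4b (0.952). Jun was nearest to Ifngr1 (0.964) and to Fos (0.944). Fos itself was nearest to Sap30l (0.987) and Svil (0.98), Fosb to Trim10 (0.994) and Prrc2a (0.943), and Fosl1 to Psmb4 (0.974) and Cops6 (0.973). Fosl2 was nearest to Efna3 (0.963) and Stat3 (0.938), and Jund to Slc50a1 (0.976) and Dph5 (0.96). Sap30l, Svil, Trim10, Psmb4, Cops6, Efna3 and Slc50a1 each spanned under 1 on the log2 scale, so their likeness rests on small differences.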

How the data were processed

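Splenic T cells labelled Gfi1 knockout or wild type were measured on 8 arrays, 1 per genotype and time, so no group has replicates. The deposited values are linear signal intensity per probe set, made with GCOS 1.4 and MAS5 per the submitters' processing notes. Their settings are not given in the sources used here. Precision is limited by the number of arrays. Probe sets were named through the platform annotation (20380 with 1 gene, 691 with several, 1555 with none), and 64 control probe sets were left out of the tests.

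Intensities were used as deposited, floored at 141.88 (the median over arrays of the 40th percentile) and log2 transformed, and tests ran on the 15062 probe sets that exceeded it in 2 or more arrays. limma 3.58.1 in R 4.3.3 fitted time with genotype as a block and a variance trend, with Benjamini-Hochberg adjustment, tested on simulated data. Each gene stands by its brightest tested probe set. Genotype differences have no test. Gene positions and promoter windows are from RefSeq, GRCm38.p6. The text names all 9 AP-1 genes. From each list it names up to 4 genes, those called at 4 h with the largest change or, where fewer than 2 were called, those with the largest mean genotype difference. Batf3, Bach2, Ddit3, Mef2d, Crem and Maff are named outside this rule, after their values were seen. It adds the 2 genes most like each AP-1 gene. The genes and lists were chosen with earlier results of these data known. Alternatives changed the scaling, floor, filter, log offset, variance model, genotype block, probe set rule and thresholds, and left out each array.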

Additional observations from a re-analysis of the deposited data

Results flagged for a closer look

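Over the 11 AP-1 probe sets, 7 changes from 0 h had opposite signs in the genotypes, in 4 genes. With 1 probe set per gene, 2 of 9 AP-1 genes did so at each of 4, 8 and 24 h. The shares of all genes were 30.2%, 28.1% and 36.4%, so the pattern was not more common among the AP-1 genes. The 8 h change of Jun comes from its second probe set, which the counts per gene leave out. Each value is the KO-labelled change minus the WT-labelled one on the log2 scale. With 1 array per genotype and time the difference was not tested.

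Fosb differed by -3.42 at 4 h (-2.13 in KO-labelled and 1.29 in WT-labelled cells) and by -4.13 at 8 h (-2.95 and 1.19). Junb differed by 2.14 at 24 h (1.04 and -1.11). Jun differed by -0.95 at 4 h in probe set 1417409_at (-0.58 and 0.37) and by -1.72 at 8 h in 1448694_at (-0.84 and 0.88). Jund differed by 0.24 at 8 h (0.03 and -0.21) and by 0.36 at 24 h (0.15 and -0.20).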

How the results depend on the processing

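The stimulation tests already compare times within each genotype, which enters as a block. For the genotype differences no paired analysis was possible because each group has 1 array. At 4 h 1 AP-1 gene was called higher and with no filter 0. At 8 h the count of 2 became 0 with the floor at the 60th percentile or no filter, and 1 with no variance trend, no genotype block or robust variances. At 24 h the 3 higher became 1 with the 60th percentile floor and 0 with no filter. Batf was also lost with no genotype block (limma adjusted p = 0.0535) and Fosl1 with the median over probe sets (limma adjusted p = 0.0683). The 1 lower at 24 h became 0 with the 60th percentile floor, no filter, no variance trend or no genotype block. Leaving out 1 array gave 0 to 2, 0 to 2 and 0 to 4 higher at 4, 8 and 24 h, and 0 to 1 lower at 24 h. The 24 h calls of Fosl1, Atf3 and Batf were also lost without the KO-labelled 24 h array (limma adjusted p = 0.0646, 0.0557 and 0.0776), and Fosl2 passed without the WT-labelled one. Over all genes 121, 206, 337 and 12 were called at 4, 8, 24 h and for 24 over 4 h, and 10 to 148, 7 to 294, 11 to 436 and 0 to 31 under the alternatives. Leaving out an array gave 0 to 190, 0 to 441, 0 to 713 and 0 to 38. The share called higher was 57.0%, 49.0%, 37.7% and 33.3%. It was 67.3%, 60.1% and 44.2% (and 1 of 5 genes for 24 over 4 h) with quantile normalization and 74.8%, 67.6%, 59.2% and 50.0% with arrays scaled to a common median. The cause was not tested.

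Fosb alone was 2-fold higher in the KO-labelled array at 0 h. That count was 2 with the floor at the 20th percentile and 0 at the 60th, and a 1.5-fold threshold gave 1 lower. Relative to the T cell markers, an alternative chosen after seeing the data, 8, 5 and 5 genes were higher at 0, 4 and 8 h, 0 lower at 4 and 8 h, and 1 higher at all 4 times. Over all genes 7289, 7171 and 6512 then differed 2-fold at 0, 4 and 8 h, and 834 at all 4. There Fos stood at 0.43 and 0.38 at 4 and 8 h, Fosb at 0.34 at 8 h, Junb at 0.64 at 4 h, and Atf3 at 0.31 and 0.14. The counts of 4-fold lower responses became 0 with the 60th percentile floor at 4, 8 and 24 h and, at 24 h, with log2 of signal plus the floor. The 1 higher at 24 h became 0 with arrays scaled to a common median. That scaling moved the median genotype difference of all genes to -0.11, -0.16 and -0.19 at 4, 8 and 24 h. Among 2-fold genotype differences the share higher was then 52.8% (main 64.1%) at 4 h and 39.1% (main 64.3%) at 24 h. Over all genes 1254, 1551, 1472 and 1208 differed 2-fold at 0, 4, 8 and 24 h and 171 at all 4. With the 20th percentile floor these were 2234, 2639, 2945, 2536 and 263, with the 60th 745, 987, 850, 670 and 54, and at 1.5-fold 2909, 3229, 3283, 2818 and 398. Fosb, Fosl1 and Fosl2 lie near the floor, which limits their values: with the 60th percentile floor Fosl2 changed by 0.06 and 0.02 at 4 and 24 h and differed by 0.03 between genotypes at 24 h.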

Other observations

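Outside the 9 AP-1 genes, 2 of the other leucine zipper factors are given here, chosen after their values were seen. Crem, a cyclic AMP response factor, gave 346, 3236, 2328 and 8771 at 0, 4, 8 and 24 h in the KO-labelled arrays, against 425, 13340, 4516 and 2029 in the WT-labelled ones. The WT-labelled signal was highest at 4 h and the KO-labelled one at 24 h, as for Junb and Fosl2. Its change in common at 4 h, 4.10, did not pass (SE 0.85, limma adjusted p = 0.0953). Maff, a small Maf protein, differed by -1.56, -1.39 and 0.66 between KO-labelled and WT-labelled arrays at 4, 8 and 24 h.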
